A study of Caenorhabditis elegans with 4 samples.

Results

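Cytochrome P450 genes were taken as every *C. elegans* gene whose symbol is cyp- followed by a digit, which gave 80 genes, 74 protein coding and 6 pseudogenes. A probe was matched for 77 of them, and 60 had a probe bright enough to be tested, among 12794 genes tested of 20460 with a probe. Of the rest, 17 members had no present probe and 3 (cyp-29A1, cyp-31A5 and cyp-33C6) had no matched probe. RNA came from whole N2 wild-type worms grown at 20 degrees and collected on day 7 to 8 of adulthood, without transgene or drug. The maximum velocity (MV) is the peak speed of a worm in a short recording on a plate without food. Worms under 0.22 mm/sec formed the low MV group and the others the high MV group, and 2 Agilent arrays with a single dye were used per group. The groups are parts of an ageing population divided by movement, and the number of worms in a sample is not given in the sources used here. The labels do not say that the replicates were separate cultures, so p-values measure only the spread between these samples.

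Cytochrome P450 enzymes hold a heme and use molecular oxygen, with electrons passed on by a P450 reductase, to oxidize small lipophilic molecules. In worms, as in other animals, they act on drugs and toxins and on the body's own sterols and fatty acids, and the family has grown by gene duplication, so that many members lie side by side in the genome. Genes of families cyp-14, cyp-34 and cyp-35 are known for expression in the intestine and for induction by foreign compounds. Members with known tasks of their own include cyp-31A2 and cyp-31A3 in the lipid barrier of the eggshell, and cyp-29A3 and cyp-33E2 in eicosanoid synthesis.

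Signals are given as quantile-normalized log2 intensity and differences as low MV minus high MV on the log2 scale. A gene was called when its adjusted p was under 0.05 and its absolute difference over 0.58, which is 1.5-fold. The share of spots well above background ran from 84.6% to 87.7% over the 4 arrays, and no spot was saturated. The low MV arrays shared 1 slide and scan and the high MV arrays another, so slide, scan and group cannot be told apart in any value below. Of the intestine markers 3 of 8 tested were called lower, namely ges-1 (-1.56), vha-6 (-0.65) and spl-1 (-0.60), and none was called higher. The median difference of all 8 was 0.12, with 4 below 0 and 4 above it. The summed signal of the intestine markers was 14.39 and 14.34 in high MV and 14.42 and 14.03 in low MV, and all 8 had a present probe. Markers of epidermis (3 of 5 tested), neurons (3 of 8) and pharynx (3 of 3) included calls upward and none downward. Those of body wall muscle (2 of 5) and germline (1 of 10) included calls downward and none upward. Over all genes tested 17% were called lower and 21.8% higher. Of the muscle markers 3 were below 0 and 2 above it. Their summed signal was 12.63 and 12.58 in high MV and 12.97 and 12.67 in low MV. The part of these markers in the P450 results was not tested.

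Tested P450 transcripts were mostly lower in low MV worms. Of the 60 members tested, 32 were lower (53.3%) and 11 higher (18.3%), whereas over all genes tested 17% were lower and 21.8% higher. Among the lower members 11 had a low MV mean under the present cutoff, the brightness needed for testing. Among the higher ones 2 had a high MV mean under it, so these members were tested only through their brighter group. Where both group means had to lie above it, 21 of 46 were lower and 9 higher, against 15.7% and 19.6% of all genes. Single arrays could still lie under the cutoff there, as in cyp-35A3 (low MV 5.92 and 7.63) and cyp-33D3 (high MV 6.58 and 6.86). Such members were also tested only through their brighter group, so that setting did not remove all of them. That setting was chosen after seeing the data. The median difference was -0.68 over the members and 0.01 over all genes. Both low MV arrays lay below both high MV arrays for 41 members and above them for 16, and over all genes these patterns held for 41.3% and 42.2%. The 17 members that were not called comprised 8 past the adjusted p with a change under 1.5-fold and 9 not past it. The brightest probes of the 17 members without a present probe read from 0.492 to 7.35. Of these, 4 were not well above background on any array. The differences of these 17 members were not tested, and their median was 0.56, with 5 below 0. Scaled to the spike-in probes, which moved the median of all genes to -0.38, 31 members were lower and 5 higher. Over all genes 22.7% were lower and 7.43% higher with this scaling. In whole-worm RNA, fewer cells of a type and less RNA per cell cannot be told apart. By comparison, UDP-glucuronosyltransferase genes (ugt-) had a median of -0.12, with 16 of 50 lower and 13 higher, and glutathione S-transferase genes (gst-) a median of -0.09, with 12 of 29 lower and 6 higher. These enzymes conjugate the products of P450 reactions, and the difference between the families was not tested.

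**Figure D1:**
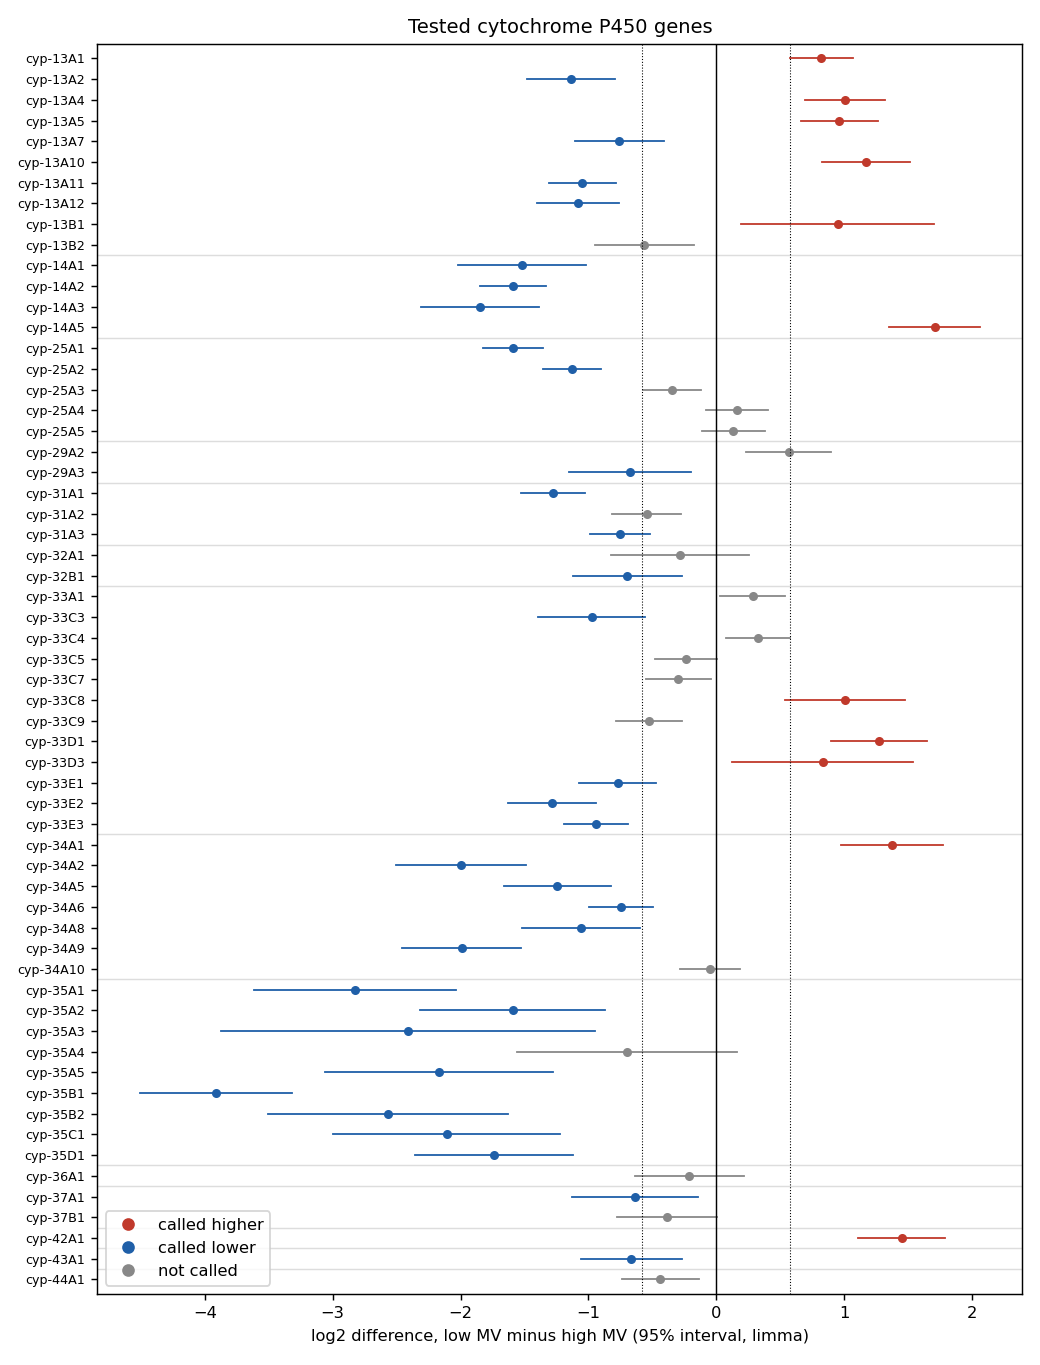
Log2 difference between low MV and high MV worms (x axis) for the 60 P450 genes tested (y axis), with 95% intervals from limma; blue is lower, red higher, grey not called, and dotted lines mark 1.5-fold. All 9 members of family cyp-35 lie left of 0, from -3.92 to -0.70, while families cyp-13, cyp-14, cyp-33 and cyp-34 hold calls in both directions with the scanner's background subtraction.

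Most of family cyp-35 fell. It is a set of mostly intestinal enzymes known for induction by foreign compounds, and several of its members affect fat storage. Its median was -2.17, and 8 of its 9 tested members were lower and none higher. In 6 of the 9 the low MV mean was under the present cutoff, so that they were tested only because of their high MV signal. The first low MV array of cyp-35A3 (5.92) was under it too, so the same held for that gene. With normexp, another way of removing background that here adds an offset of 50, the median was -0.74 and 6 of the 9 were lower. Without this family, the median of the other 51 members was -0.55, with 24 lower and 11 higher. On the high MV arrays cyp-35B1, also known as dod-13 and as a gene downstream of the insulin-like receptor DAF-2, read 8.44 and 8.84, and on the low MV arrays 4.44 and 5.01. The groups lay far apart, and the difference of -3.92 (SE 0.23, adjusted p = 0.00070), or 15.1-fold, was the largest fall among the members with the scanner's background subtraction. Its low MV mean was under the present cutoff, and with normexp it was -1.11, behind cyp-35C1, cyp-34A9, cyp-35A2, cyp-25A1 and cyp-14A3. Its neighbour cyp-35B2 read 6.80 and 7.78 in high MV against 4.43 and 5.02 in low MV (-2.57, SE 0.37, adjusted p = 0.0035). In cyp-35A1 the values were 7.94 and 8.38 in high MV and 4.91 and 5.76 in low MV, a difference of -2.83 (SE 0.31, adjusted p = 0.0018).

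Further falls in the family were found in cyp-35C1, at 13.03 and 13.50 in high MV and 10.67 and 11.65 in low MV (-2.11, SE 0.35, adjusted p = 0.0054). For cyp-35A2, whose knockdown lowers fat storage, the signal was 12.91 and 12.96 in high MV and 10.91 and 11.77 in low MV (-1.59, SE 0.28, adjusted p = 0.0068). For both genes the brighter low MV array stayed more than 1 log2 unit under the dimmer high MV array. The signal of cyp-35A3 was 8.86 and 9.51 in high MV and 5.92 and 7.63 in low MV (-2.41, SE 0.58, adjusted p = 0.017), with low MV arrays wide apart. For cyp-35A5 it was 6.84 and 7.69 against 4.76 and 5.44 (-2.17, SE 0.35, adjusted p = 0.0050). The thiabendazole-metabolizing enzyme cyp-35D1 dropped from 8.16 and 8.59 to 6.34 and 6.93 (-1.74, SE 0.24, adjusted p = 0.0033). In each of these 3 genes the groups did not overlap, and over all genes tested both low MV arrays lay below both high MV arrays for 41.3%. The member of the family that was not called was cyp-35A4, with 7.11 and 7.28 in high MV and 5.98 and 7.01 in low MV. Its groups did not overlap either. Its difference of -0.70 had a 95% interval from -1.56 to 0.16 and an adjusted p of 0.13.

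Replicates of family cyp-35 differed from each other as well. The median SD of its members was 0.601 in low MV and 0.311 in high MV, against 0.0657 and 0.105 over all genes. In all 9 members the second replicate was brighter than the first in both groups, by a median of 0.85 in low MV and 0.44 in high MV, whereas over all genes the second was brighter in 58.2% and 56.9%. Without either one of the high MV arrays cyp-35A3 lost its call, and without the second low MV array all 9 members were called lower.

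**Figure D2:**
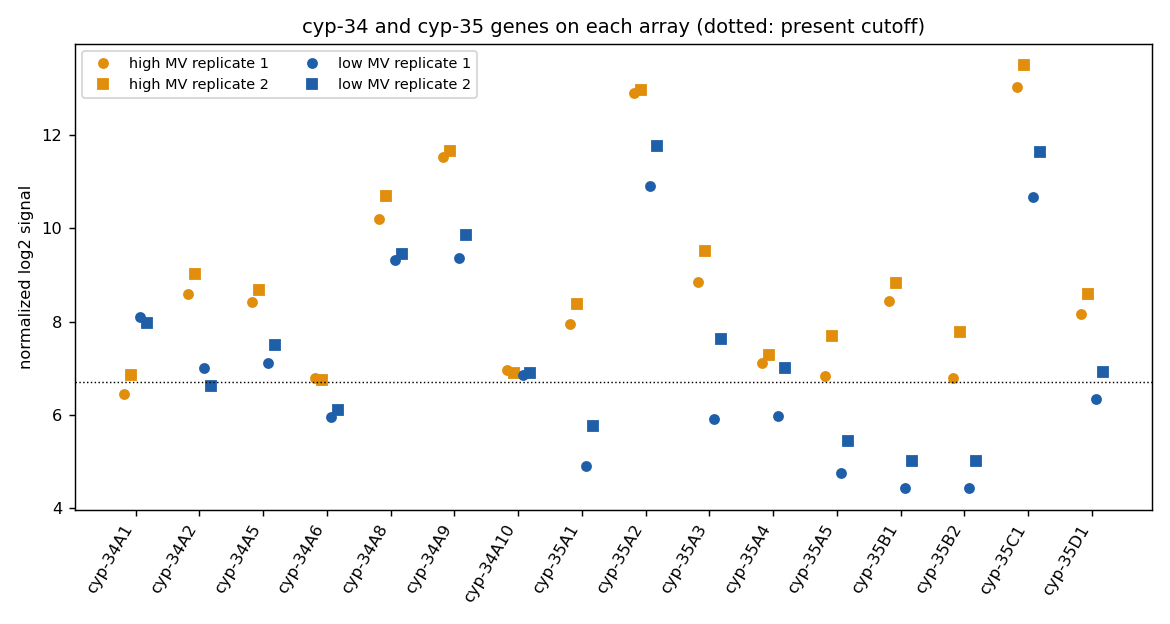
Normalized log2 signal (y axis) of the cyp-34 and cyp-35 genes (x axis) on each of the 4 arrays; orange is high MV, blue low MV, circles replicate 1, squares replicate 2, and the dotted line is the present cutoff of 6.71. Both low MV points lie below both high MV points in all 9 cyp-35 genes, and above them in cyp-34A1. Over all genes tested these patterns held for 41.3% and 42.2%.

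Family cyp-34 had 5 of 7 tested members lower and 1 higher, or 3 lower and none higher with normexp. The signal of cyp-34A9, known as dod-16 and another gene downstream of DAF-2, was 11.52 and 11.67 in high MV and 9.36 and 9.85 in low MV (-1.99, SE 0.18, adjusted p = 0.0012). All 6 of its present probes fell, by values from -2.10 to -1.99. A pair of adjacent genes had calls in opposite directions. One of them, cyp-34A2, went from 8.59 and 9.03 to 7.00 and 6.63 (-1.995, SE 0.20, adjusted p = 0.0014). Beside it, cyp-34A1 went from 6.45 and 6.85 to 8.10 and 7.96 (1.38, SE 0.16, adjusted p = 0.0019). Neither gene had overlapping groups, and over all genes tested low MV lay wholly below for 41.3% and wholly above for 42.2%. The high MV mean of cyp-34A1 was under the present cutoff, and with normexp its difference was 0.45 and not called.

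In family cyp-14, 3 of 4 tested members were lower, and the other was the largest rise among the tested P450 genes. Values of cyp-14A3 were 10.17 and 10.44 in high MV and 8.25 and 8.67 in low MV (-1.85, SE 0.18, adjusted p = 0.0014). Its neighbours cyp-14A1 (-1.52) and cyp-14A2 (-1.59) were lower too, both with a low MV mean under the present cutoff, and both lost their call with normexp. Elsewhere in the genome, cyp-14A5 rose from 10.06 and 10.40 to 11.996 and 11.88 (1.71, SE 0.14, adjusted p = 0.0010). That is a 3.27-fold higher signal, and the low MV arrays lay close together.

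Family cyp-13, of the same clan as human CYP3A drug-metabolizing enzymes, had 5 of 10 tested members higher and 4 lower. These counts were 3 and 0 with normexp, and 1 and 3 with spike-in scaling. Levels of cyp-13A10 were 8.11 and 8.43 in high MV and 9.48 and 9.41 in low MV (1.17, SE 0.14, adjusted p = 0.0020). A pair of neighbours rose as well: cyp-13A4, from 11.60 and 11.65 to 12.77 and 12.50 (1.01, SE 0.12, adjusted p = 0.0022), and cyp-13A5, from 12.25 and 12.26 to 13.34 and 13.09 (0.96, SE 0.12, adjusted p = 0.0023). Both kept the same sign in all of their present probes. A less even rise was that of cyp-13B1, from 7.87 and 8.58 to 8.89 and 9.46 (0.95, SE 0.30, adjusted p = 0.040), which was lost without the first high MV or the second low MV array. The rise of cyp-13B1 was also not called with spike-in scaling, normexp, no probe filter, the well above background filter or the mean of probes. Among the falls was cyp-13A12, which acts in the response of worms to reoxygenation. It read 7.87 and 7.60 in high MV and 6.60 and 6.70 in low MV (-1.08, SE 0.13, adjusted p = 0.0020). Its low MV mean was under the present cutoff, and with normexp its difference was -0.40 and not called. Its neighbour cyp-13A11 fell by a like amount (-1.05), and with normexp it was not called either (-0.32).

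Family cyp-33 gave 4 lower and 3 higher of 12 tested. With normexp 1 was lower and 1 higher, and with spike-in scaling 4 and 1. All 3 cyp-33E genes were lower and both tested cyp-33D genes higher. Signals of cyp-33E2, an eicosanoid-forming enzyme of the pharynx, were 9.42 and 9.51 in high MV and 8.02 and 8.34 in low MV (-1.28, SE 0.14, adjusted p = 0.0017). In low MV cyp-33D1 rose from 6.01 and 6.18 to 7.54 and 7.20 (1.27, SE 0.15, adjusted p = 0.0020), with its high MV mean under the present cutoff. The less certain cyp-33D3 read 6.58 and 6.86 in high MV and 7.95 and 7.15 in low MV (0.83, SE 0.28, adjusted p = 0.0485). It lost its call when any one of 3 arrays was left out, namely either high MV array or the first low MV array, and also with spike-in scaling and normexp. In subfamily cyp-33C 1 of 6 tested was higher and 1 lower. The higher one, cyp-33C8, moved from 9.43 and 9.91 to 10.78 and 10.57 (1.01, SE 0.19, adjusted p = 0.0075).

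Of the smaller families, cyp-42A1 rose from 7.62 and 7.93 to 9.28 and 9.18 (1.45, SE 0.13, adjusted p = 0.0012), with the same sign in its 3 present probes. Single members cyp-32B1 (-0.69) and cyp-43A1 (-0.66) were lower, but cyp-32B1 lost its call without the first high MV or the second low MV array, and cyp-43A1 without the second high MV array. Both calls were also lost with 75th percentile scaling and normexp. The fall of cyp-37A1 (-0.63) was not called without either one of the high MV arrays or the second low MV array, and ran from -0.88 to -0.39 with 1 array left out. In family cyp-25, cyp-25A1 (-1.59) and cyp-25A2 (-1.13) were lower, while cyp-25A3, cyp-25A4 and cyp-25A5 were not called, at -0.35 to 0.16. Eicosanoid-forming cyp-29A3 read 7.51 and 7.95 in high MV and 6.91 and 7.20 in low MV (-0.67, SE 0.19, adjusted p = 0.028). It was not called with 75th percentile scaling, spike-in scaling, normexp, the deposited table, no probe filter or the well above background filter. Its call was lost without the second high MV or the first low MV array. For cyp-36A1, which acts in the transcriptional response downstream of EGL-9 and HIF-1, the groups overlapped, at 8.37 and 8.75 in high MV and 8.47 and 8.22 in low MV. Its difference of -0.21 had a 95% interval from -0.64 to 0.21. Then cyp-44A1, the member most like mitochondrial P450 enzymes of other animals, gave 12.46 and 12.71 against 12.15 and 12.14 (-0.44, SE 0.12, adjusted p = 0.025), which passed the adjusted p but not 1.5-fold. Values of cyp-37B1 were 9.95 and 9.98 in high MV and 9.38 and 9.78 in low MV (-0.39, 95% interval from -0.78 to 0.01).

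Both eggshell genes had lower signals in low MV worms on both arrays. Signals of cyp-31A3 were 13.02 and 13.08 in high MV and 12.32 and 12.28 in low MV (-0.75, SE 0.09, adjusted p = 0.0022). Those of cyp-31A2 were 12.13 and 12.32 against 11.65 and 11.70 (-0.55, SE 0.11, adjusted p = 0.0092), just under 1.5-fold, and its 2 present probes differed, at -1.37 and -0.55. It was called lower with 75th percentile scaling (-0.70), spike-in scaling (-1.07), normexp (-0.58), the deposited table (-0.63) and the mean of its probes (-0.96), and without the first high MV array. The probe of the pseudogene cyp-31A1 was lower too (-1.28). Probes of near-identical copies such as these, or of the cyp-34A and cyp-35A genes, may read more than one gene, and this was not tested because no probe sequence was used here.

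Gene order in the RefSeq annotation put 48 members into 12 runs of neighbours with at most 3 other genes between them. In the longest, from cyp-35A5 to cyp-34A10, 7 of 8 tested genes were lower and none higher, with a median of -1.62, and 3 were lower with normexp. All 3 tested genes of the cyp-14A run were lower, or 1 with normexp. The run of cyp-13A genes held 3 higher and 2 lower genes, and cyp-34A1 and cyp-34A2 formed the only other run with both directions. With normexp neither run held both directions, with 2 higher in the cyp-13A run and cyp-34A2 lower in the other. With spike-in scaling the cyp-13A run held 1 lower and no higher gene.

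**Figure D3:**
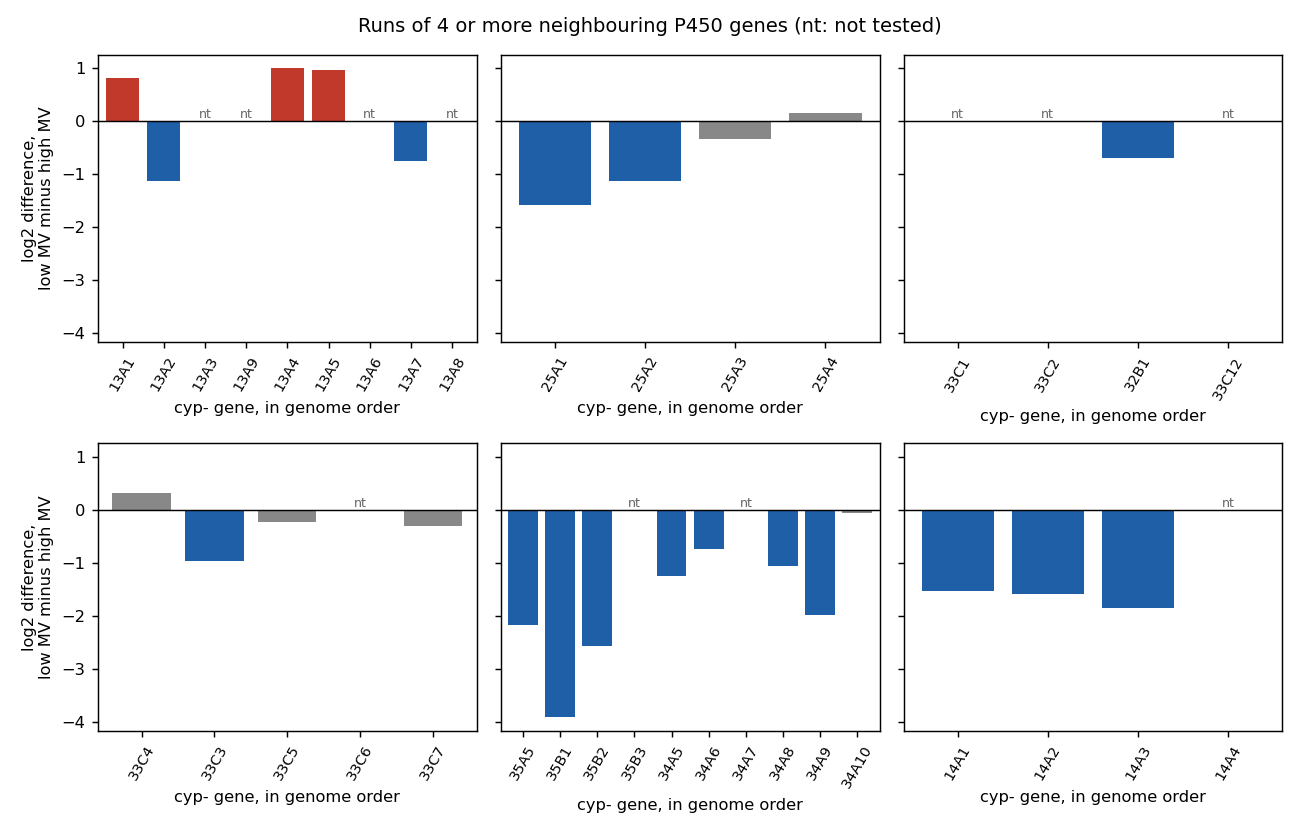
Log2 difference between low MV and high MV worms (y axis) for the 6 runs that hold at least 4 neighbouring P450 genes, each panel in genome order (x axis); blue is lower, red higher, grey not called, and nt marks genes not tested. The run of cyp-13A genes holds bars on both sides of 0, and the run from cyp-35A5 to cyp-34A10 only bars below 0.

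Of 54 tested genes that work with P450 enzymes, 11 were lower (20.4%) and 10 higher (18.5%), near the shares over all genes of 17% and 21.8%. With spike-in scaling 17 were lower and 3 higher, and over all genes 22.7% and 7.43%. The P450 reductase emb-8, which hands electrons to the enzymes, read 11.26 and 11.17 in high MV and 10.93 and 10.99 in low MV (-0.26, SE 0.10, adjusted p = 0.066). Of the 4 redox partners only the predicted cytochrome b5 reductase hpo-19 was called (-0.63). Among 6 genes of heme handling, hrg-7 (-1.98) and the intestinal heme importer hrg-4 (-1.81) were lower, and hrg-1 (0.81), hrg-3 (0.97) and the heme exporter mrp-5 (0.79) higher.

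Dafachronic acids are steroid hormones whose last step is made by the P450 enzyme DAF-9. The daf-9 probe was below the present cutoff, at 5.62 and 5.602 in high MV and 5.99 and 5.87 in low MV, and was not tested. Of 6 tested genes of this route, the Rieske oxygenase daf-36 was lower (-0.95), and the dehydrogenase dhs-16 (1.14), the sterol transport genes ncr-1 (0.80) and ncr-2 (1.16) and the receptor daf-12 (0.76) were higher. For eicosanoid synthesis, 3 of 10 genes were lower and none higher, against 17% and 21.8% of all genes tested. The median of the 10 was -0.25. The 3 lower ones were the desaturases fat-7 (-2.76) and fat-1 (-0.72) and the epoxide hydrolase ceeh-2 (-0.77).

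Of 13 tested regulators of xenobiotic and hypoxia responses, the nuclear receptor nhr-176, which controls cyp-35D1, was lower (-0.93), and hif-1 (0.84) and pqm-1 (0.74) were higher. In the list of eggshell and permeability barrier genes, cpg-3 (-0.84), egg-2 (-0.64) and gna-2 (-0.69) were lower, and the fatty acid synthase fasn-1 (1.65) was higher, among 15 tested.

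The size of the changes depended on the background correction, more often for members near or under the present cutoff but also for brighter ones. The normexp correction started from median brightness and added an offset of 50 to every intensity. Such an offset by itself draws log2 differences of dim probes toward 0, and its part in these changes was not tested. All 60 tested members were well above background on all 4 arrays, but 14 had a group mean under the present cutoff, 12 of them in low MV. With normexp background correction, 3 of the 13 called members of this kind kept their call, against 18 of the other 30. Among those 30, cyp-33E2 went from -1.28 to -0.64 and cyp-42A1 from 1.45 to 0.77. The fall of cyp-35B1 shrank from -3.92 to -1.11 and that of cyp-35B2 from -2.57 to -0.42, while cyp-35C1 (-2.05) and cyp-34A9 (-1.74) moved little. With this correction 16 of the 60 members were lower and 6 higher, against 10.2% and 12% over all genes. No called member changed direction.

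**Figure D4:**
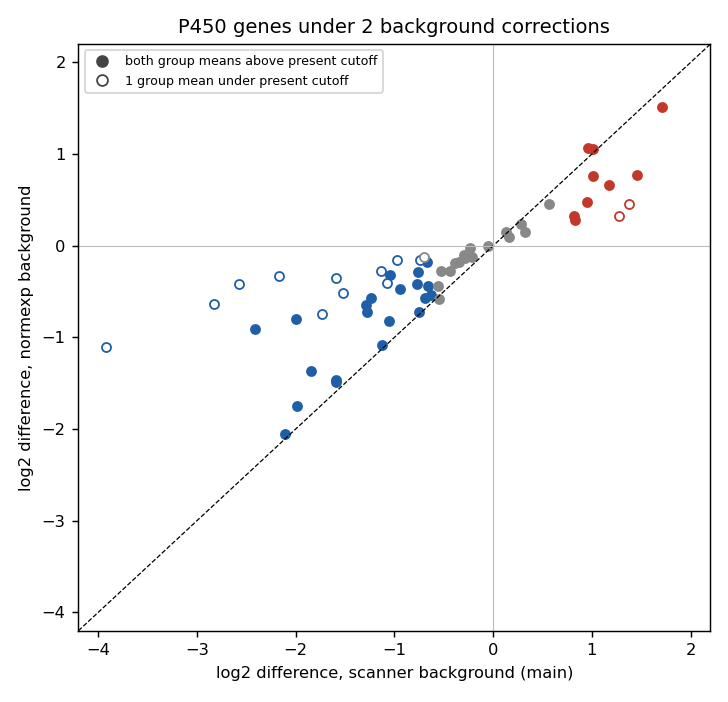
Log2 difference of the 60 P450 genes with the scanner's background subtraction (x axis) and with normexp (y axis); blue is lower, red higher, grey not called, open circles have 1 group mean under the present cutoff, and the dashed line marks equal values. Open circles lie far nearer to 0 on the y axis than on the x axis, as for cyp-35B1 (-3.92 against -1.11).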

How the data were processed

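The scanner files that the authors deposited hold, for each spot, a background-subtracted intensity from Agilent Feature Extraction 11.5.1.1, the median brightness and flags. The deposited log2 table equals the quantile-normalized median brightness to within 5e-09 and served as an alternative. Here the log2 intensity of 43803 non-control spots was quantile normalized, spots with an outlier flag were left out, and spots of a probe were averaged.

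A probe was present if above the point where 2 fitted Gaussian densities meet (6.707) in both arrays of a group. This point varied with how the fit was made. The fit was run in 3 forms, which gave cutoffs of 6.707, 6.887 and 7.074 and 60, 55 and 52 members tested. The last 2 were set aside while the number of present genes was being set against an earlier processing of these data, and the form with the tightest convergence was kept. Group differences under the 3 forms had not been compared by then.

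Genes were named by looking up probe names in RefSeq's WBcel235 annotation (22716 of 28477 names), used for names and gene order only. The brightest present probe stood for a gene. Groups were compared with limma 3.58.1 (lmFit, eBayes) in R 4.3.3, with Benjamini-Hochberg adjustment over all 12794 genes. An exact permutation test of 2 against 2 arrays cannot go below p = 0.333. The limma fit was checked on simulated data before use. The number of arrays limits the precision.

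Members and gene lists were chosen with earlier results of these data known. Array values are given for the 10 largest rises and 10 largest falls among called members and for members with a known role, other members are summarised by family, and listed pathway genes are named where called. Sequences were not used here. Python 3.11.15 with scikit-learn 1.9.0, scipy 1.17.1 and matplotlib 3.10.9 was used. Alternatives covered scaling, background, probe filter, probe choice, variance prior, test, threshold, replicate block and leaving out each array.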

Additional observations from a re-analysis of the deposited data

How the results depend on the processing

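No called member changed direction under any alternative run. Of 43, 3 (cyp-25A1, cyp-25A2 and cyp-31A1) were called under every one, and cyp-35B1 under all but the one that required both group means above the present cutoff, where it was not tested. Members lower and higher numbered 32 and 11. They were 16 and 6 with normexp (over all genes 10.2% and 12%) and 31 and 5 with spike-in scaling (22.7% and 7.43%). A t-test gave 8 and 1 after adjustment (5.96% and 6.26%) and 23 and 8 unadjusted (14.8% and 17.6%). The paper combined its t-test with a log2 median ratio test, so these counts were not those of its full procedure. At 2-fold the members lower and higher were 22 and 7 (7.13% and 9.94%). Where both group means, though not each array, had to lie above the present cutoff, they were 21 and 9 of 46 tested (15.7% and 19.6%). That setting was chosen after seeing the data. Leaving out 1 array gave 28 to 33 lower and 9 to 11 higher. The 2 other present cutoffs tried, also added after seeing the data, gave 27 and 11 of 55 tested and 26 and 11 of 52, and no member still tested lost its call. The median of -0.68 became -0.55 with 75th percentile scaling, -0.93 with spike-in scaling, -0.28 with normexp, -0.60 in the deposited table, -0.55 without a filter, -0.56 with the well above background filter, -0.75 with the mean of probes and -0.63 with the looser convergence of the cutoff fit. It ran from -0.74 to -0.63 with 1 array left out. Pathway genes lower and higher, 11 and 10, were 17 and 3 with spike-in scaling, 7 and 5 with normexp, 1 and 3 with the adjusted t-test, and 3 and 3 at 2-fold. Spike-in scaling shifts every gene on an array by the same amount, and with it the median of all genes became -0.38. The cause of these moves was not tested.

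Uncalled members that changed sign were cyp-33C5 (0.072), cyp-34A10 (0.25) and cyp-36A1 (0.015) with 75th percentile scaling, and cyp-25A4 (-0.11) and cyp-25A5 (-0.11) with spike-in scaling. Differences between the replicates showed almost no correlation between the groups (r = -0.0278 across 12794 genes, which are not independent). This value cannot tell whether replicates of the same number were handled together. In all 9 tested cyp-35 members the second replicate was brighter in both groups. With the replicate block 32 members were lower and 10 higher, the lost call being cyp-33D3. A block for slide or scan could not be fitted because no slide or scan held both groups.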
